A study of Populus trichocarpa with 18 samples.

Results

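The genes described are the reductases that end the monolignol pathway in black cottonwood, Populus trichocarpa. They were named by identifier: cinnamoyl-CoA reductase CCR2 (Potri.003G181400.v4.1), cinnamyl alcohol dehydrogenase CAD1 (Potri.009G095800.v4.1) and cinnamyl alcohol dehydrogenase CAD2 (Potri.016G078300.v4.1). Of these 3 identifiers, 2 are among the 11294 genes with a row in either count table. CCR2 and CAD1 have a row in both tables, and CAD2 has a row in neither and was not analysed here. The gene names come from published poplar gene models and were not checked against an annotation, since the reference gene table does not pair these identifiers with names or positions. Genome coordinates are therefore not given.

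Monolignols are the alcohols that are exported to the cell wall and polymerised into lignin. Cinnamoyl-CoA reductase turns hydroxycinnamoyl-CoA esters into aldehydes and is the first step committed to lignin precursors, and cinnamyl alcohol dehydrogenase reduces these aldehydes to the alcohols. In poplar, loss of either activity discolours the wood, and loss of cinnamyl alcohol dehydrogenase lets aldehydes enter the polymer. Tension wood, which broadleaf trees form above the lean of a stem, has fibres with a cellulose-rich inner wall layer that holds little lignin.

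All 18 libraries came from wild-type trees raised from cuttings and aged 5 to 12 months. Trees bent for 21 days gave tension wood; the labels do not say how the stems that gave normal wood were held. From debarked stem sections 16 µm thick, 5 bands of stem differentiating xylem were cut by laser and those named Region 1, Region 2 and Region 3 were collected, about 1600000 µm2 pooled per region and biological replicate. The labels leave out which region lies nearest the cambium. Each of the 6 groups of wood and region held 3 biological replicates, sequenced from the transcript ends next to the poly(A) tail.

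Library totals ran from 6254 to 20080 counts in normal wood and from 8982 to 89358 in tension wood. The 5 secondary wall cellulose synthases, enzymes of the thickened xylem wall, were counted in every library, at 0.0746% to 0.267% of counts in normal and 0.971% to 1.20% in tension wood. Markers of tissues outside the xylem were not analysed here. Each wood has its own table, so wood type cannot be told apart from separate preparation, sequencing or counting. Fewer cells of a type and less RNA per cell cannot be told apart in these samples either.

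CAD1 was counted in all 18 libraries and took a larger share of the counts in tension wood in each region. Levels are given in CPM, the count of a gene scaled to the total count of its library. In Region 1 of normal wood CAD1 stood at 3258, 2359.7 and 2927 CPM in replicates 1 to 3, and in tension wood at 5773, 4767 and 4861 CPM. The groups did not overlap, and the lowest tension library lay above the highest normal one. The means were 2848 ± 454 and 5134 ± 555 CPM (SD, n = 3), a ratio of 1.80. Tension shares above all normal shares were found for 44.6% of the 1037 genes tested in this region, so the separation is common.

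In Region 2 the woods lay closer together. CAD1 stood at 3934, 4519 and 4443 CPM in normal wood and at 6004, 4534 and 5357 CPM in tension wood. The groups did not overlap, but tension replicate 2 lay only just above normal replicate 2. The means were 4299 ± 318 and 5298 ± 737 CPM (SD, n = 3), a ratio of 1.23, and 42.2% of the 798 genes tested separated in this direction.

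In Region 3, the shallowest band of both woods by summed counts, CAD1 stood at 2843, 3108 and 2878 CPM in normal wood. In tension wood it stood at 4896, 4231 and 4444 CPM, again above every normal library. The means were 2943 ± 144 and 4524 ± 339.8 CPM (SD, n = 3), a ratio of 1.54, and 36.4% of 217 genes tested separated in this direction. Exact two-sided permutation tests of the difference in share gave p = 0.1 in each region, the smallest value that 3 against 3 libraries allow, and 0.1 after Benjamini-Hochberg adjustment over the 11 share and ratio tests made. Over the 3 regions of a replicate, CAD1 took 0.348%, 0.325% and 0.337% of normal counts and 0.568%, 0.465% and 0.499% of tension counts. These sums do not overlap, as for 56.7% of 1932 genes tested in this direction.

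**Figure D1:**
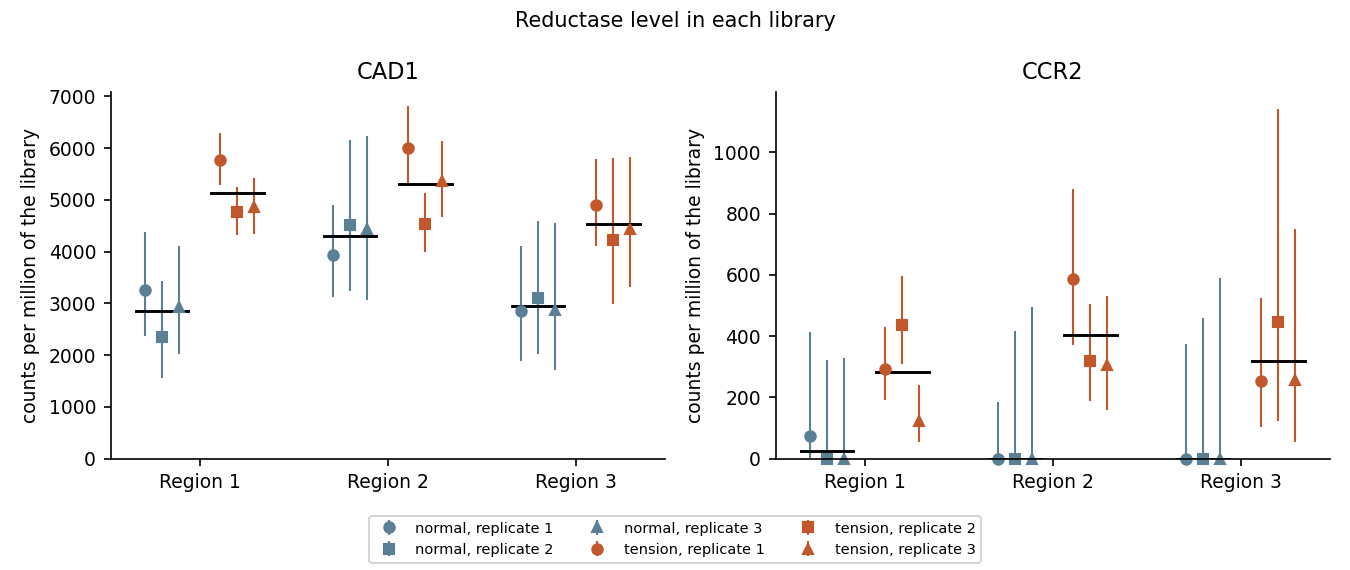
CAD1 (left) and CCR2 (right) in each library, in CPM, by region, wood (colour) and biological replicate (symbol); bars are exact 95% counting intervals and black lines group means. CAD1 in tension wood lies above normal wood in each region, least so in Region 2, and CCR2 is at 0 in 8 of the 9 normal libraries.

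The test across genes used edgeR's quasi-likelihood model with TMM scaling. The TMM factors came from the genes listed in both tables that passed the filter of each comparison. They did not centre the genes tested on no change, as the medians below show. The edgeR test called CAD1 higher in tension wood in Region 1, at 1.95 on the log2 scale (SE 0.24, adjusted p = 1.5e-10), where 52.5% of genes tested were called higher. In Region 2 the log2 fold change was 1.16 (SE 0.31, adjusted p = 0.00092), with 45.7% of genes called higher, and in Region 3 it was 1.05 (SE 0.27, adjusted p = 0.0014), with 37.3% called higher. A call was thus the usual outcome for a gene tested, and 88%, 88.2% and 89.9% of genes were called in either direction. Over all genes tested the log2 fold change had a median of 1.37, 0.43 and -1.39 in Regions 1 to 3. CAD1 lay 0.58, 0.73 and 2.44 above it, and at percentiles 53.9, 54.8 and 62.7 of the genes of its region. The genes tested differ between regions and settings, and the distance turned sign with them. In Region 1 it was -0.92, -1.21 and -1.08 without normal replicates 1 to 3 and -1.03 with a minimum count of 3. In Region 2 it was -1.46, -0.93 and -0.91 without these replicates, -1.56 with a minimum count of 3 and -0.97 with no filter, and in Region 3 it was -0.88 with no filter. Without tension replicates 1 to 3 the distance rose instead, to 2.97, 3.08 and 3.08 in Region 1 and to 2.41, 2.64 and 2.42 in Region 2. With all 18 libraries in one fit it was 2.95 and 2.60 in these regions. The size of the change depended on the scaling: library totals gave lower log2 fold changes of 0.84 in Region 1 and 0.63 in Region 3, both still called. In Region 2 the call ended under scaling by library totals (log2 fold change 0.32, adjusted p = 0.156), without normal replicate 2 (0.89, adjusted p = 0.057), and with no filter on low counts or libraries thinned to 1 depth, while in Region 3 the last 2 of these ended it. Leaving out normal replicates 1 to 3 in turn moved the Region 1 value to 1.47, 1.12 and 1.21. Leaving out tension replicates 1 to 3 moved it to 2.57, 2.62 and 2.78. In Region 3 the values were 0.76, 1.52 and 1.76 without normal replicates 1 to 3 and 1.14, 1.60 and 2.27 without tension replicates 1 to 3. CAD1 stayed called in each of these fits of Regions 1 and 3.

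With regions summed per biological replicate, the edgeR test did not call CAD1 (log2 fold change 0.57, SE 0.29, 95% interval 0.0022 to 1.14, adjusted p = 0.054), while 56.1% of 1932 genes were called higher, 34.3% lower and 90.4% in either direction. The genes as a whole had a median of 1.76, so CAD1 lay 1.19 below it, with 1139 genes above it. Without tension replicates 1 to 3 in turn it lay 0.11, 0.24 and 0.27 above the median, with no filter 0.21 above and with thinning 2.51 above. Scaling by library totals gave 0.60 (adjusted p = 0.00027), and RLE factors, another scaling over the genes tested, gave 0.82 (adjusted p = 2.1e-06). The summed value was called without any of tension replicates 1 to 3 (0.98, 1.22 and 1.26) and without normal replicate 1 (0.50). It was not called without normal replicate 2 (0.091) or normal replicate 3 (0.094). The sums weight the regions by depth, which differs between the woods. Whether this moved the summed value was not tested.

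CCR2 was hardly counted in the normal libraries. It had 1 count there, in Region 1 of replicate 1, and 0 in the other 8 normal libraries, out of 96725 counts in all. In tension wood it was counted in 9 of 9 libraries, with 140 of 426338 counts. The ratio of the pooled shares was 31.8, with an exact 95% interval from 5.61 to 1263 that covers counting error only. At the pooled tension share of each region, 10.9, 14.3 and 7.01 counts would have been expected in the normal libraries of Regions 1 to 3, against the 1, 0 and 0 found. The floor of 3 counts stood at 149 to 479.7 CPM in single normal libraries, so a level like that of tension wood could be missed in 1 of them, and the comparison rests on the pooled counts.

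In tension wood CCR2 stood at 294, 436 and 123 CPM in replicates 1 to 3 of Region 1, from 26, 39 and 8 counts. In Region 2 it stood at 588, 319 and 305 CPM from 23, 18 and 12 counts, and in Region 3 at 254, 445 and 256 CPM from 7, 4 and 3 counts. Replicate 3 of Region 1 was the lowest of the 9 and replicate 1 of Region 2 the highest. Group means were 284 ± 157, 404 ± 159 and 319 ± 109.8 CPM (SD, n = 3), and their spreads overlap. Between replicates, the spread over that of counting noise (chi-square over degrees of freedom) was 6.19 in Region 1, 2.68 in Region 2 and 0.458 in Region 3. For CAD1 in tension wood it was 5.12, 4.93 and 0.401, against 0.880, 0.328 and 0.0585 in normal wood, where counts were fewer.

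By region, the ratio of CCR2 in tension to normal wood was 10.9 in Region 1 (exact 95% counting interval 1.89 to 435). In Regions 2 and 3, with 0 normal counts, the pooled tension share was 4.76 and 2.34 times a floor of 3 counts over the 3 normal libraries. These 2 values leave out the counting error of the 53 and 14 tension counts, so they are not on the same measure as the Region 1 interval. The edgeR filter left CCR2 out of each regional comparison. In the summed comparison it passed the filter through its tension counts alone, so that it had to differ there: the log2 fold change was 4.76 (SE 0.91, adjusted p = 4.0e-07), which depends on the prior count and is no bound. Its place among the 1932 genes tested is therefore not given. The log2 value moved to 7.94 without normal replicate 1, which held the single normal count. CCR2 could not be tested without tension replicate 1 or 2, as it then failed the filter. Exact permutation tests of its share gave p = 0.1 in each region and in the sums, the smallest possible.

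The ratio of CAD1 to CCR2 counts within a replicate does not depend on how the woods are scaled to each other. In normal replicates 1 to 3 the counts were 151 to 1, 92 to 0 and 84 to 0, and in tension replicates 881 to 56, 720 to 61 and 580 to 23. CCR2 was thus 0.305% of the counts of both genes in normal wood (exact 95% interval 0.00772% to 1.69%) and 6.03% in tension wood (5.10% to 7.08%). The intervals do not overlap, but they come from pooled counts and cover counting error only, not the spread between replicates. The mean log2 ratio, with 0.5 added to each count, was 7.20 ± 0.47 in normal and 4.05 ± 0.54 in tension wood (SD, n = 3; exact permutation p = 0.1, the smallest possible). The normal value is set by the added 0.5 in the 2 replicates with no CCR2 count. In Region 1 alone the woods overlapped, at 4.89 to 6.07 in normal and 3.43 to 5.22 in tension wood (exact permutation p = 0.2).

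The other genes of the pathway were taken from a list of 20 identifiers of published gene models, all of which have a row in either table. In the summed comparison edgeR tested 18 of them and called 10 higher and 1 lower in tension wood. Of all 1932 genes tested there, 56.1% were called higher and 34.3% lower, so the 10 of 18 lies near the share of all genes. The list had a median log2 fold change of 1.29, against 1.76 for all genes tested. In Regions 1 to 3 it called 13 of 14, 12 of 14 and 7 of 9 higher and 0 lower, with medians of 2.49, 2.62 and 2.20, where 52.5%, 45.7% and 37.3% of all genes tested were called higher. Under library totals it called 8 of 14, 9 of 14 and 6 of 9 higher, with medians of 1.38, 1.84 and 1.78. Of all genes tested, library totals called 456 of 1037, 328 of 798 and 79 of 217 higher in these regions. In the sums, library totals gave 11 of 18 list genes higher and 2 lower, and RLE factors gave 14 higher and 1 lower. Of all 1932 genes tested in the sums, 1104 were called higher under library totals and 1133 under RLE factors. With TMM scaling, CAD1 lay below the list's median in each comparison: by 0.54, 1.45 and 1.15 in Regions 1 to 3 and by 0.72 in the sums. Of the list genes tested, 8 of 14, 11 of 14, 7 of 9 and 12 of 18 had a higher fold change than CAD1, and these counts were equal under RLE factors and library totals.

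By step, the summed comparison called 5 of the 6 tested genes of phenylalanine ammonia-lyase and cinnamate 4-hydroxylase, which open the pathway, higher, against 56.1% of all genes tested. Of 6 tested genes for the coenzyme A and shikimate ester steps it called 1 higher and 1 lower. HCT6, a shikimate hydroxycinnamoyl transferase, had the highest fold change of the 18 other genes, at a log2 value of 4.06 (SE 0.99), but from 84 counts against 1, so that it too passed the filter through tension wood. The lowest was 4CL5, a 4-coumarate CoA ligase, at -6.10 (SE 0.71), with 2 tension counts against 40 in normal wood, although tension wood was the deeper. It passed the filter through its normal counts alone, so that it had to come out lower, and it is the 1 list gene called lower. Methylation of the coenzyme A ester had 1 of 3 genes called higher, and the ring hydroxylation and methylation of the aldehyde had 3 of 3. The 56.1% of all genes called higher is the share to set beside each of these step counts. Of all 1932 genes tested, 1133 were called higher under RLE factors and 1104 under library totals. Under RLE factors the ester steps had 3 of 6 higher and 1 lower, methylation of the coenzyme A ester 2 of 3 higher and the opening steps 6 of 6. Library totals gave 6 of 6 for the opening steps, and 1 higher and 1 lower for the methylation. The ring steps had 3 of 3 higher under each scaling. CCR2 acts between these last groups, and its product is the substrate of CAD1 and of the ring steps. Tags from near-identical gene copies may have been split or dropped in counting, which no source used here describes.

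**Figure D2:**
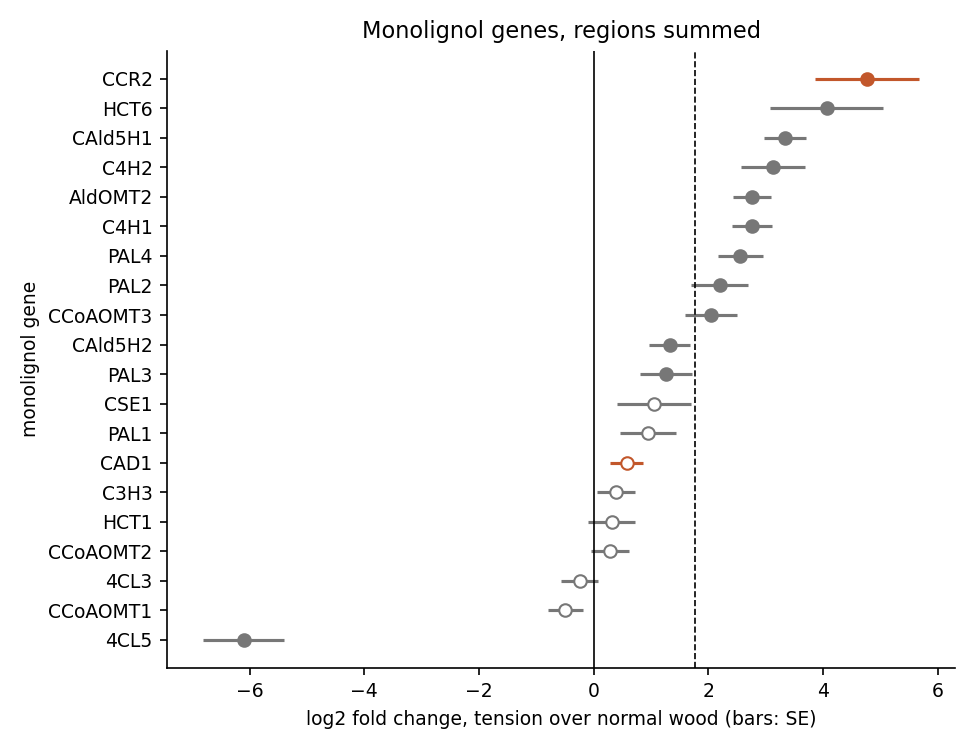
Log2 fold change of the tested monolignol genes, tension over normal wood with regions summed; bars are standard errors, filled points passed the edgeR test (adjusted p under 0.05), and CCR2 and CAD1 are in orange. The dashed line is the median of all 1932 genes tested, 1.76; CAD1 lies below the line at 0.57, and the value of CCR2, 4.76, rests on 1 normal count and is not ranked.

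CAD1 took a smaller part of the monolignol counts in tension wood. Out of all counts of the 20 list genes with CCR2 and CAD1, CAD1 made up 25.1%, 24.1% and 21.8% in the summed normal replicates and 17.8%, 14.5% and 16.2% in the tension replicates. Every normal replicate lay above every tension replicate, with means of 23.7% ± 1.72 and 16.2% ± 1.66 (SD, n = 3; exact permutation p = 0.1, the smallest possible). CCR2 went the other way, from 0.166%, 0% and 0% in normal to 1.13%, 1.22% and 0.644% in tension replicates. In Region 1 alone its share overlapped between the woods, at 0% to 0.469% in normal and 0.379% to 1.26% in tension wood (exact permutation p = 0.2). Of the 22 genes with a row, 8 had a share of these counts that was higher in every tension replicate and 6 a share that was lower in every one, CCR2 being among the 8 and CAD1 among the 6. Shares of library counts separated in the higher direction for 56.7% of 1932 genes tested, so such separation is common. The same count over all genes was not made for shares of the list. The whole list took 1.35% to 1.55% of counts in normal and 3.07% to 3.22% in tension replicates, so CAD1 took more of the library and less of the pathway in each tension replicate than in each normal one.

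Within the pathway, the share of CAD1 was highest in Region 2 of normal wood. There CAD1 made up 30.3%, 33.9% and 31.4% of the monolignol counts in replicates 1 to 3. In Region 1 it made up 20.7%, 17.5% and 16.3%, and in Region 3 22.0%, 22.7% and 23.1%. All 3 Region 2 libraries lay above the 6 others of normal wood. How many other list genes separate a region in this way was not counted, and the share also depends on the counts of those genes. In tension wood the values were 16.9%, 13.8% and 15.0% in Region 1, 20.4%, 15.5% and 18.8% in Region 2, and 17.2%, 15.6% and 15.4% in Region 3, which overlap. By region, the difference in means between tension and normal wood was -2.91 percentage points in Region 1, where the woods overlapped, -13.6 in Region 2 and -6.56 in Region 3. These regional shares rest on as few as 78 list counts in a normal library and were read after the values were known, so no test of the region is given for them.

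**Figure D3:**
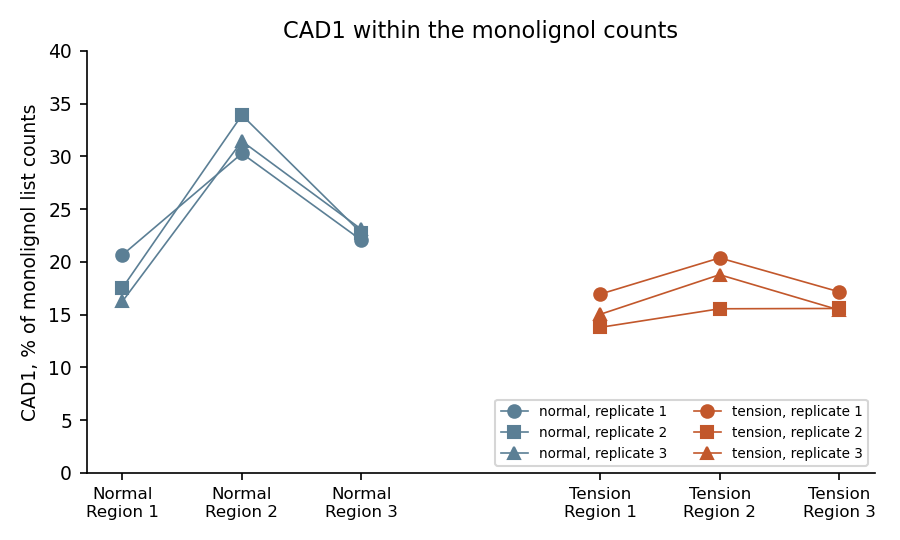
CAD1 as a percentage of the counts of the monolignol list with CCR2 and CAD1, by wood and region; each line joins the regions of 1 biological replicate. Region 2 of normal wood lies at 30.3% to 33.9%, above all other libraries, and tension wood lies between 13.8% and 20.4%.

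The level of CAD1 over all counts showed the same order in normal wood without passing the test across genes. Its 3 Region 2 libraries (3934 to 4519 CPM) lay above the 6 libraries of Regions 1 and 3, as did those of 1.26% of the 318 genes tested, CAD1 included. This separation was read after the values were known and was not tested, so the small share is not read as particular to CAD1. Region 2 was higher than Region 1 in 3 of 3 replicates and Region 3 lower than Region 2 in 3 of 3. The log2 fold change of Region 2 against Region 1 was 0.53 (SE 0.30, 95% interval -0.073 to 1.13, edgeR adjusted p = 0.830), and of Region 3 against Region 2 -0.55 (SE 0.32, interval -1.17 to 0.080, adjusted p = 0.691). Each compared regions within biological replicates, and edgeR called 0 of 318 genes in both (13 and 21 had an unadjusted p under 0.05; CAD1 was not among them, at 0.085 and 0.087). Region 3 against Region 1 gave -0.018 (interval -0.66 to 0.62, adjusted p = 0.978), and 0.314% of genes were called.

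In tension wood, with deeper libraries, the intervals of CAD1 were narrower and none of its changes was called. Region 2 against Region 1 gave 0.068 (SE 0.12, 95% interval -0.17 to 0.31, edgeR adjusted p = 0.983), with 0.171% of 1171 genes called. Region 3 against Region 2 gave -0.23 (SE 0.14, interval -0.51 to 0.039, adjusted p = 0.998), with 0 genes called and 56 at an unadjusted p under 0.05, and Region 3 was the lower in 3 of 3 replicates. Region 3 against Region 1 gave -0.17 (SE 0.13, interval -0.44 to 0.10, adjusted p = 0.952), with 0.342% of genes called and Region 3 again lower in 3 of 3 replicates. How many of the 1171 genes tested were lower in 3 of 3 replicates was not counted, so these signs are not read as particular to CAD1.

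CCR2 was tested between regions in tension wood only. Its log2 fold change was 0.53 in Region 2 against Region 1 (SE 0.38, 95% interval -0.24 to 1.30, edgeR adjusted p = 0.971). It was -0.46 in Region 3 against Region 2 (SE 0.52, interval -1.51 to 0.59, adjusted p = 0.998) and 0.067 in Region 3 against Region 1 (SE 0.52, interval -0.98 to 1.12, adjusted p = 0.995). Region 2 was above Region 1 in 2 of 3 replicates. With 3 to 7 counts per library in Region 3, the intervals of the comparisons with it are wide. Of the other monolignol genes, 16 were tested between regions of tension wood, and 1 was called in any of the 3 comparisons: C4H1, a cinnamate 4-hydroxylase, was lower in Region 3 than in Region 1, at -0.71 on the log2 scale (SE 0.17, edgeR adjusted p = 0.031).

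**Figure D4:**
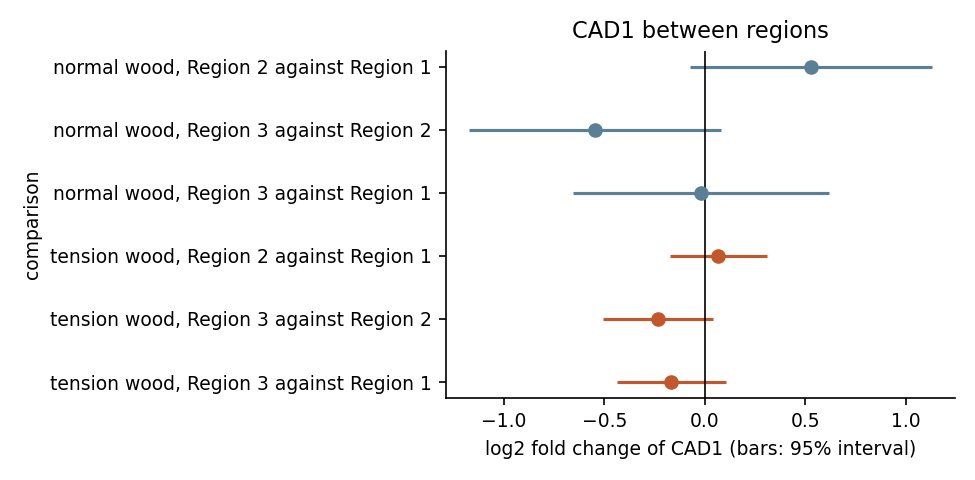
Log2 fold change of CAD1 between regions within normal wood (blue) and tension wood (orange), fitted with the biological replicate as a block; bars are 95% intervals. All 6 intervals include 0, and those of tension wood are narrower.

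Whether the change between regions differs between the woods was tested directly over all 18 libraries. For Region 1 to Region 2 the difference, tension minus normal, was -1.01 on the log2 scale for CAD1 (SE 0.38, edgeR adjusted p = 0.358), with 0 of 573 genes called and 56 at an unadjusted p under 0.05. For Region 1 to Region 3 it was -1.52 (SE 0.41, adjusted p = 0.013), with 8.55% of genes called, all lower. All genes tested had medians of -0.43 and -1.34 in these fits, so CAD1 lay 0.58 and 0.18 below it. Under RLE factors and library totals the medians for Region 3 were -0.24 and -0.17, and CAD1, at -0.32 and -0.23, was not called (adjusted p = 0.815 and 0.861). The call was also lost without any one of normal replicates 1 to 3 (-0.054, 0.25 and 0.0081) or tension replicates 2 and 3 (-1.34 and -1.50).

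The genes whose profile over the 18 libraries was most like that of each reductase were sought among genes listed in both tables with at least 200 counts. For CCR2, Potri.019G121100, Potri.002G104000 and Potri.004G117200 had the highest Pearson correlations of log2(CPM + 50), at 0.971, 0.965 and 0.960 among 481 genes, where the median was 0.731. All 3 had 2 to 3 counts in normal and 199 to 302 in tension wood. For CAD1, Potri.006G200400, Potri.010G244900 and Potri.012G014966 stood at 0.903, 0.886 and 0.871 among 480 genes, with a median of 0.568. After each wood's mean was subtracted, the correlations fell to 0.687, 0.636 and 0.619 for CCR2 and to 0.763, 0.680 and 0.669 for CAD1. The libraries share the split by wood and by depth, so these values are descriptions. CAD1 itself correlated with CCR2 at 0.746, rank 238, and at 0.065 after subtraction. Of the pathway, AldOMT2, an O-methyltransferase of the aldehyde ring steps, ranked highest for CCR2 (0.929, rank 13) and C4H2, a cinnamate 4-hydroxylase, for CAD1 (0.781, rank 38). After subtraction these stood at 0.179 and 0.332, and 4CL3, a 4-coumarate CoA ligase, was above AldOMT2 for CCR2, at 0.367.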

How the data were processed

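RNA was tagged at transcript ends (QIAGEN UPX kit, per the labels' protocols). The counts that the authors deposited are whole numbers for each gene, with a separate table for each wood. The submitters' processing notes name UMI-tools, featureCounts and STAR. Their versions and settings, the genome build, and whether a count is a read or a molecule are not given in those notes. Intervals and floors therefore describe counting error alone. The normal table lists 6763 genes, that of tension wood 8878 and both 4347; the smallest row sum was 1 in each. All columns matched a labelled sample. Replicates are biological per the labels.

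Tests across genes used edgeR 4.0.16 (R 4.3.3; glmQLFit and glmQLFTest), TMM factors, filterByExpr (minimum count 10) and a threshold of 0.05 on the Benjamini-Hochberg adjusted p. Woods were compared on genes listed in both tables, without a block, per region and on region sums. Regions were compared within a wood with the biological replicate as a block, as the labels tie the regions to it. Differences between woods in regional change were fitted over 18 libraries with 6 blocks. Shares and ratios (0.5 added to each count) were tested by exact two-sided permutation in SciPy 1.17.1. Counting intervals are exact (Clopper-Pearson) at 95%, and the floor is 3 counts. Scripts were tested on simulated data. Alternatives included RLE factors, library totals, DESeq2 1.42.0, other filters, thinning and leaving out each replicate.

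Named genes are the reductases, list genes called lower or at the ends of the list in the summed comparison, the list genes that ranked highest in likeness, and the 3 genes most like each reductase; the likeness rank of list genes was chosen after the values were seen. The members and lists were chosen with earlier results of these data known, and the list identifiers were recalled from published gene models. Grouping of list genes by step was made after the results. Sequences are not shown, as none was in the files used.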

Additional observations from a re-analysis of the deposited data

Results flagged for a closer look

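The change of CAD1 from Region 1 to Region 3 differed between the woods by -1.52 on the log2 scale (tension minus normal), and this difference passed the edgeR test of the difference itself (adjusted p = 0.013). Group means were 5134 and 4524 CPM in Regions 1 and 3 of tension wood and 2848 and 2943 CPM in normal wood. All genes tested had a median of -1.34 in the same fit, and its part in the call was not tested. CAD1 was not called under RLE factors or library totals, and of the 6 fits that left out 1 replicate, 1 called it (without tension replicate 1).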

How the results depend on the processing

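CAD1 in Region 1 was called under every setting run, at log2 values of 0.56 to 2.93 (2.93 with all 18 libraries in one fit). In Region 2 the log2 fold change of CAD1 was no longer called with library totals (0.32), no filter on low counts (0.29) or thinning (0.062), was 1.91 with all 18 libraries in one fit, and ranged from 0.84 to 1.38 with single replicates left out. In Region 3 the call was lost with no filter (0.48) and with thinning (0.12). With regions summed, CAD1 became called with RLE factors (0.82), library totals (0.60), DESeq2 (0.82), no filter (0.99) and thinning (0.95), and ranged from 0.091 to 1.26 with replicates left out. For CCR2 in the sums the log2 values were 4.56 to 5.15 under 7 other settings and 3.90 to 7.94 in 4 fits that left out a replicate. It entered these fits through its tension counts, and thinning or leaving out tension replicate 1 or 2 dropped it, so they do not bear on stability.

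Uncalled regional changes turned sign in places. CAD1 in normal wood, Region 3 against Region 1, was 0.046 with library totals and -0.17 to 0.21 with replicates left out. CAD1 in tension wood, Region 2 against Region 1, was -0.070 with no filter and -0.031 to 0.14 with replicates left out. CCR2 in tension wood was -0.92 to 0.063 for Region 3 against Region 2 with replicates left out. For Region 3 against Region 1 it was -0.041 with a minimum count of 3, -0.20 with no filter, and -0.26 to 0.28 with replicates left out. The difference between woods in the change of CAD1 to Region 3 was -0.32 with RLE factors, -0.23 with library totals, 0.21 with a minimum count of 3 and -1.76 to 0.25 with replicates left out. The cause of these changes was not tested.

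With only genes listed in both tables as the total, the CAD1 share differed by 0.205 percentage points in Region 3. The difference in the log2 ratio of CAD1 to CCR2 was -2.37 with 1 added to each count, -1.27 in Region 1 alone and -1.85 in Region 3 alone. As a share of the monolignol counts, CCR2 differed by 1.38 points in Region 2 alone, and CAD1 by -2.91 in Region 1 alone and -13.6 in Region 2 alone.

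Whether replicate numbers pair the woods was not settled. After each wood's mean was subtracted, region sums of same-numbered normal and tension replicates correlated at 0.023, -0.0076 and 0.014. The summed normal replicates held only 24956 to 43432 counts, so counting noise could hide a pairing. With a replicate block, the comparisons of woods gave CAD1 1.96, 1.19 and 1.05 in Regions 1 to 3 and 0.61 in the sums (adjusted p = 0.096 in edgeR), and CCR2 4.77, with no call changed. Regional comparisons without the replicate block changed no call. Planned ratios with CAD2 could not be computed, as it has no row. Depth limits CCR2 in normal wood, with 1 count in all, and regional changes there.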
